A study of Mus musculus with 6 samples.

Results

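The genes described here encode enzymes that add methyl groups to histones (writers) or take them off (erasers). They were chosen by name, as the rows of the deposited expression table whose symbols begin with Kmt2, Kmt5, Kdm1 to Kdm8, Setd, Ehmt, Suv39h, Nsd1 to Nsd3, Whsc1, Prmt, Dot1l, Ash1l or Ash2l, leaving out Kdm1a. This gave 48 genes of 13185 rows, and all 48 were above the filter on low values, which kept 12554 rows. By target, 29 were writers, 14 were erasers and 5 had no settled histone target. Counted among the writers were Ash2l, a core subunit of writer complexes and not a catalytic one, and Prmt3, a cytosolic enzyme of ribosomal protein S2. The cells were a mouse model of T-ALL (acute lymphoblastic leukaemia of the T lineage) in which Notch1 is the driver, grown on plate-bound anti-CD3 antibody (2.5 ug/mL) with IL-2 (100 U/mL). Panobinostat, an inhibitor of histone deacetylases, was given at 25 nM for 2 h to the cells of 3 libraries, and the cells of the other 3 libraries were left untreated. Reads came from the 3' ends of polyadenylated transcripts. Levels are log2 CPM, a gene's reads scaled to its library's total, here after quantile normalization between libraries, as inferred from the values. Whether the libraries came from separate cultures, leukaemias or clones is not given in the labels, so a p-value here reflects the spread among these 6 samples alone, and that spread may be technical. A value after ± is the SE of a fold change.

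A histone tail can carry up to 3 methyl groups on a lysine, and the residue decides how the mark is read. Methylation of lysine 4 and lysine 36 of histone H3 (H3K4, H3K36) goes with active promoters, enhancers and transcribed gene bodies, whereas methylation of H3K9, H3K27 and lysine 20 of histone H4 (H4K20) goes with compacted or silent chromatin. Most lysine writers share a catalytic SET domain, Dot1l has a different fold, and the Prmt enzymes methylate arginines. Erasers are either flavin-dependent enzymes such as Kdm1b or JmjC enzymes, which need iron and 2-oxoglutarate. In T-cell leukaemias several of these genes are known as recurrent targets of mutation or rearrangement, among them KMT2A and KDM6A.

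All 13 T cell markers were measured, with Cd3d at 8.14 to 8.78 log2 CPM and Cd8a at 5.76 to 6.15 in the 6 libraries, while Cd4 was at 1.15 to 2.89. The summed level of the 13 was 1327 to 1365 CPM in panobinostat libraries and 1694 to 1820 CPM in untreated libraries. The list was split: Lck (8.16 to 8.36 treated, 9.03 to 9.12 untreated), Cd3d, Cd3e, Cd28 and Zap70 were lower in every treated library, Notch1 (8.22 to 8.37 treated, 7.77 to 8.09 untreated) and Ptcra were higher in every treated library, and the other 6 overlapped. Markers of other cells were present: 5 of 6 B cell markers summed to 60.6 to 69.7 CPM in panobinostat and 74.8 to 79.5 CPM in untreated libraries, and 5 of 6 myeloid markers to 90.9 to 95.8 and 125 to 159 CPM. Erythroid markers (5 of 5) summed to 4579 to 4743 CPM in panobinostat and 4632 to 5195 CPM in untreated libraries. For 3 of 6 stromal, endothelial and epithelial markers the sums were 63.1 to 84.0 and 91.4 to 126 CPM. Nearly all of this last sum came from Pecam1 (5.89 to 6.31 log2 CPM treated, 6.47 to 6.94 untreated). Epcam (-3.25 to 0.67 treated, 0.18 to 1.04 untreated) and Pdgfrb (1.12 to 1.84 treated, -0.17 to 1.12 untreated) were low. Pdgfrb was not lower in treated libraries. Among the globin genes, Hba-a1 was lower in treated libraries (10.87 to 11.00 against 11.11 to 11.50 log2 CPM), whereas Hbb-bs (10.27 to 10.32 against 9.76 to 10.13) and Hbb-bt (10.41 to 10.47 against 10.09 to 10.38) were higher. The erythroid marker Klf1 was lower in every treated library (2.92 to 3.44 against 4.43 to 4.58 log2 CPM). So was Gata1 (1.893 to 2.247 against 2.539 to 2.997). Of 4 NK cell markers looked for, 0 were among the rows used here. The part of these cells in the changes below was not tested. In bulk samples fewer cells of a type and less RNA per cell cannot be told apart. From ties among low values, 1 CPM stood for an estimated 6.02 to 7.74 reads, depending on the library. Untreated library 1 lay nearer the panobinostat libraries on the first principal component (25.7, against 48 and 41 for the other untreated libraries and -43.2 to -35.4 for the treated ones).

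Across the 48 genes, 9 rose and 17 fell with panobinostat (limma, Benjamini-Hochberg adjusted p below 0.05 over all 12554 genes tested), while 22 did not pass. Of all genes tested, 38.3% passed, 19.2% higher and 19% lower, against 54.2% of the 48 genes. Passing was more frequent among all genes at comparable levels: of the 3584 genes with a mean level between 4.66 and 6.68 log2 CPM, the interquartile range of the 48, 48.1% passed. The changes were small: only 2 of the 26 calls, the fall of Kmt5b and the rise of Kdm5b, reached 2-fold (4.17% of the 48 genes, against 10.3% of all genes). The median log2 fold change of the 48 was -0.10, beside -0.0052 for all genes, and its median absolute size was 0.35, beside 0.40. In 27 of the 48 (56.2%) the libraries of the 2 groups did not overlap, against a background of 51.4% of all genes. Of 29 writers 5 rose and 10 fell (median -0.07), and of 14 erasers 3 rose and 5 fell (median -0.17). The number of falls depended on single libraries. It was 11 without panobinostat library 1, 10 without panobinostat library 2 or 3 or untreated library 3, 12 without untreated library 2 and 16 without untreated library 1, and the number of rises was 6 to 10.

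**Figure D1:**
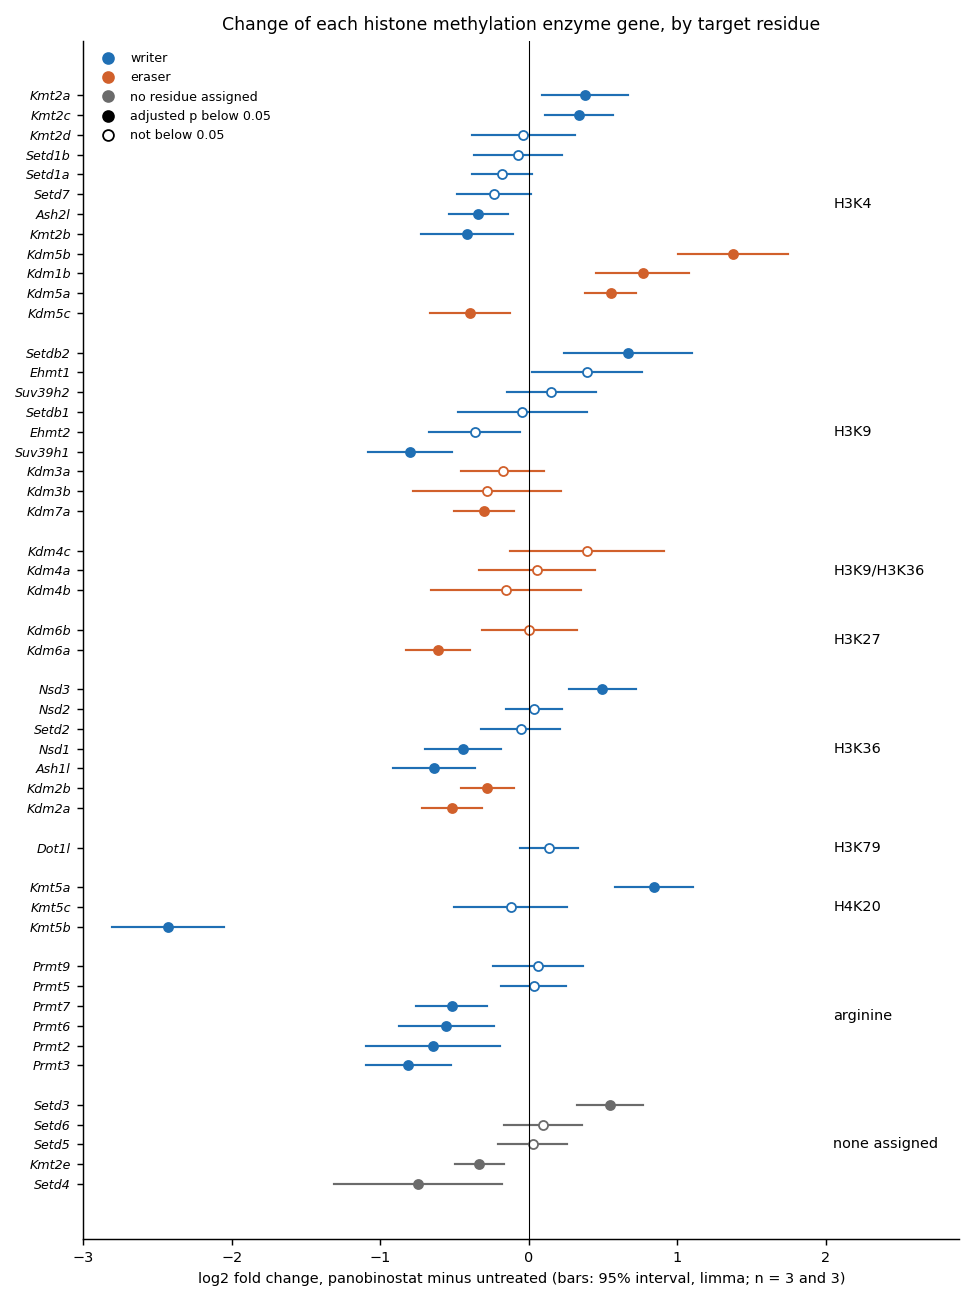
Log2 fold change (panobinostat minus untreated, x axis) of each of the 48 genes, grouped by target residue, with 95% intervals from limma over 3 and 3 libraries; blue marks writers, orange erasers, grey genes with no assigned residue, and filled points an adjusted p below 0.05, open points the rest. Kmt5b lies far to the left at -2.43, 3 of the 4 H3K4 erasers lie to the right of 0, and 4 of the 6 arginine methyltransferases lie to the left.

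Among the 3 H4K20 writers 1 rose and 1 fell, and the fall of Kmt5b was the change of largest size among the 48 genes. Kmt5a makes the monomethyl form of H4K20, a mark tied to the cell cycle, and Kmt5b and Kmt5c convert it to the di- and trimethyl forms. Kmt5b fell 5.39-fold and Kmt5a rose 1.79-fold, while Kmt5c did not pass. Kmt5b stood at 6.18, 5.70 and 5.79 log2 CPM in untreated libraries 1 to 3 and at 3.63, 3.24 and 3.51 in panobinostat libraries 1 to 3 (-2.43 ± 0.16 on the log2 scale, limma adjusted p = 0.0002). Every panobinostat library was more than 2 log2 units below every untreated library. In estimated reads, this was 64 to 87 against 350 to 562. Kmt5a stood at 6.32, 6.20 and 5.90 log2 CPM in untreated libraries 1 to 3 and at 6.95, 6.99 and 7.01 in panobinostat libraries 1 to 3 (0.84 ± 0.11 on the log2 scale, limma adjusted p = 0.00162). The 3 panobinostat libraries were close together and above all untreated libraries, which ranged from 5.90 to 6.32. Kmt5c overlapped between the groups, at 5.83, 5.53 and 5.95 untreated and 5.40, 5.60 and 5.95 treated (-0.12 ± 0.16, 95% interval -0.50 to 0.26). In the 6 fits that left out 1 library each, both calls were kept (Kmt5b -2.53 to -2.29, Kmt5a 0.72 to 0.93).

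Kmt5b (chromosome 19, 3767421 to 3818303), Kmt5a (chromosome 5, 124439930 to 124462308) and Kdm5b (chromosome 1, 134560171 to 134635285) had the largest fall and the largest rises, so the 250 bases before their start sites are shown, from RefSeq on build GRCm38.p6, the same assembly as the authors' mm10. The regions are chr19:3767171-3767420, chr5:124439680-124439929 and chr1:134559928-134560177, all on the plus strand. For genes with more than 1 listed start, Kmt5a and Kmt5b, the most upstream is given. Capitals mark the GC box GGGCGG, to which Sp family factors bind, and the CCAAT box CCAAT, to which NF-Y binds, on either strand.
Kmt5b: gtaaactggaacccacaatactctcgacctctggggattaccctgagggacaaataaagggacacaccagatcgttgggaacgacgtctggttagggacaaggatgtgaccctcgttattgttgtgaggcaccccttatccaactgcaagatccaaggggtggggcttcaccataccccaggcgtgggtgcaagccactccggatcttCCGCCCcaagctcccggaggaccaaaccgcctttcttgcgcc
Kmt5a: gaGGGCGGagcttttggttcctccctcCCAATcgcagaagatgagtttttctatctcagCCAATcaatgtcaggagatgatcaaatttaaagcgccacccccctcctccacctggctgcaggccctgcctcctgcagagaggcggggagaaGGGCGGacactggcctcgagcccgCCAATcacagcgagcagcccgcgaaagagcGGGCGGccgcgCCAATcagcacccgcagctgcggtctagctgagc
Kdm5b: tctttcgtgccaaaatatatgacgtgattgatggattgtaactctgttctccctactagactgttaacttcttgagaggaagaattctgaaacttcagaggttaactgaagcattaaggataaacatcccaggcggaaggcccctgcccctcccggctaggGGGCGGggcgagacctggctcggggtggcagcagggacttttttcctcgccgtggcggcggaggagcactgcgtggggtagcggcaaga
The Kmt5a window held 4 CCAAT boxes and 3 GC boxes, whereas those of Kmt5b and Kdm5b each held 1 GC box and 0 CCAAT boxes. The E-box CACGTG, searched on both strands, had no match in these 3 windows. The same was true of the ETS core CCGGAAG. Neither the TATA box TATAAA nor an NRF1-type palindrome was found there on either strand. Of the 48 genes 35 had a window of this length. Among them 62.9% held a GC box and 37.1% a CCAAT box, close to the 60.3% and 37.2% of 8563 tested genes with a window, and against 32.7% and 33.8% of all 32851 listed windows. A match in these windows is a description of letters, and no binding was measured. Counts differed at the other listed starts. Those of Kmt5a held 1 CCAAT box and 3 GC boxes, or 2 CCAAT boxes and 1 GC box. The other Kmt5b start had 2 GC boxes and 0 CCAAT boxes. Which start was used in these cells was not measured.

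H3K4 erasers were the class with the most rises. Kdm5a, Kdm5b and Kdm5c are JmjC enzymes that remove di- and trimethyl H3K4, the mark of active promoters, and Kdm1b is a flavin enzyme that acts on the lower forms. Of 4 measured, Kdm5b, Kdm1b and Kdm5a rose and Kdm5c fell, so that all 4 passed, and the class median was 0.66. Among all genes tested 38.3% passed, 19.2% higher and 19% lower. Kdm5b stood at 2.88, 3.20 and 2.72 log2 CPM in untreated libraries 1 to 3 and at 4.21, 4.37 and 4.34 in panobinostat libraries 1 to 3 (1.37 ± 0.16 on the log2 scale, limma adjusted p = 0.000946). This was a 2.59-fold rise from a low level, 43 to 62 estimated reads in untreated libraries. Kdm1b stood at 3.38, 3.24 and 3.11 log2 CPM in untreated libraries 1 to 3 and at 4.09, 3.92 and 4.03 in panobinostat libraries 1 to 3 (0.77 ± 0.14 on the log2 scale, limma adjusted p = 0.00423), and no treated library reached down to an untreated one. The last exon of Kdm1b shares 505 bases with Dek on the opposite strand, and the strand setting of the read counting was not given in the sources used here, so reads of both genes cannot be told apart there. Dek fell, from 8.36, 8.48 and 8.34 to 8.24, 7.94 and 8.01 (-0.33 ± 0.09 on the log2 scale, limma adjusted p = 0.0259).

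Kdm5a stood at 7.55, 7.45 and 7.48 log2 CPM in untreated libraries 1 to 3 and at 8.13, 7.97 and 8.03 in panobinostat libraries 1 to 3 (0.55 ± 0.07 on the log2 scale, limma adjusted p = 0.00158), without overlap. Its X-linked relative Kdm5c changed the other way, from 5.39, 5.73 and 5.74 untreated to 5.21, 5.20 and 5.26 treated (-0.40 ± 0.12 on the log2 scale, limma adjusted p = 0.0298). Untreated library 1 was the lowest of the untreated values for Kdm5c. Its call was lost on leaving out any library other than untreated library 1 (-0.42 to -0.33 in these 5), whereas those of Kdm5b, Kdm1b and Kdm5a were kept in all 6.

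Of the 8 H3K4 writers 2 rose and 2 fell, with a median of -0.13. The catalytic subunits Kmt2a to Kmt2d (MLL1, MLL2, MLL3 and MLL4 in older names) and Setd1a and Setd1b work in complexes built around a shared core that includes Ash2l. Ash2l stood at 6.74, 6.85 and 6.69 log2 CPM in untreated libraries 1 to 3 and at 6.36, 6.53 and 6.36 in panobinostat libraries 1 to 3 (-0.34 ± 0.09 on the log2 scale, limma adjusted p = 0.0173). Every treated value was below every untreated one, but the call was lost on leaving out panobinostat library 1 or 3 (-0.31). Kmt2a (0.38 ± 0.13) and Kmt2c (0.34 ± 0.10), the latter an enhancer-acting enzyme, rose, and Kmt2b fell (-0.42 ± 0.13). Kmt2a lost its call on leaving out any library other than untreated library 1 (0.27 to 0.41), Kmt2b on leaving out any other than panobinostat library 3 (-0.46 to -0.31), and Kmt2c without panobinostat library 1 or 3 or untreated library 2 or 3 (0.27 to 0.33).

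The other 4 H3K4 writers did not pass. Kmt2d, a paralog of Kmt2c, stood at -0.04 ± 0.15 (95% interval -0.39 to 0.31) and Setd1b at -0.07 ± 0.13 (-0.37 to 0.23). Setd7, which makes monomethyl H3K4 and also methylates other proteins, stood at -0.24 ± 0.11 (-0.49 to 0.01). Setd1a stood at -0.18 ± 0.09 (-0.38 to 0.02) and passed without untreated library 1 (-0.25). The last exon of Setd1a shares 175 bases with Gm49388 on the same strand. H3K4 erasers thus included 3 rises of 1.47-fold to 2.59-fold and the 1.32-fold fall of Kdm5c, and the change of largest size among the 8 writers was the 1.33-fold fall of Kmt2b.

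**Figure D2:**
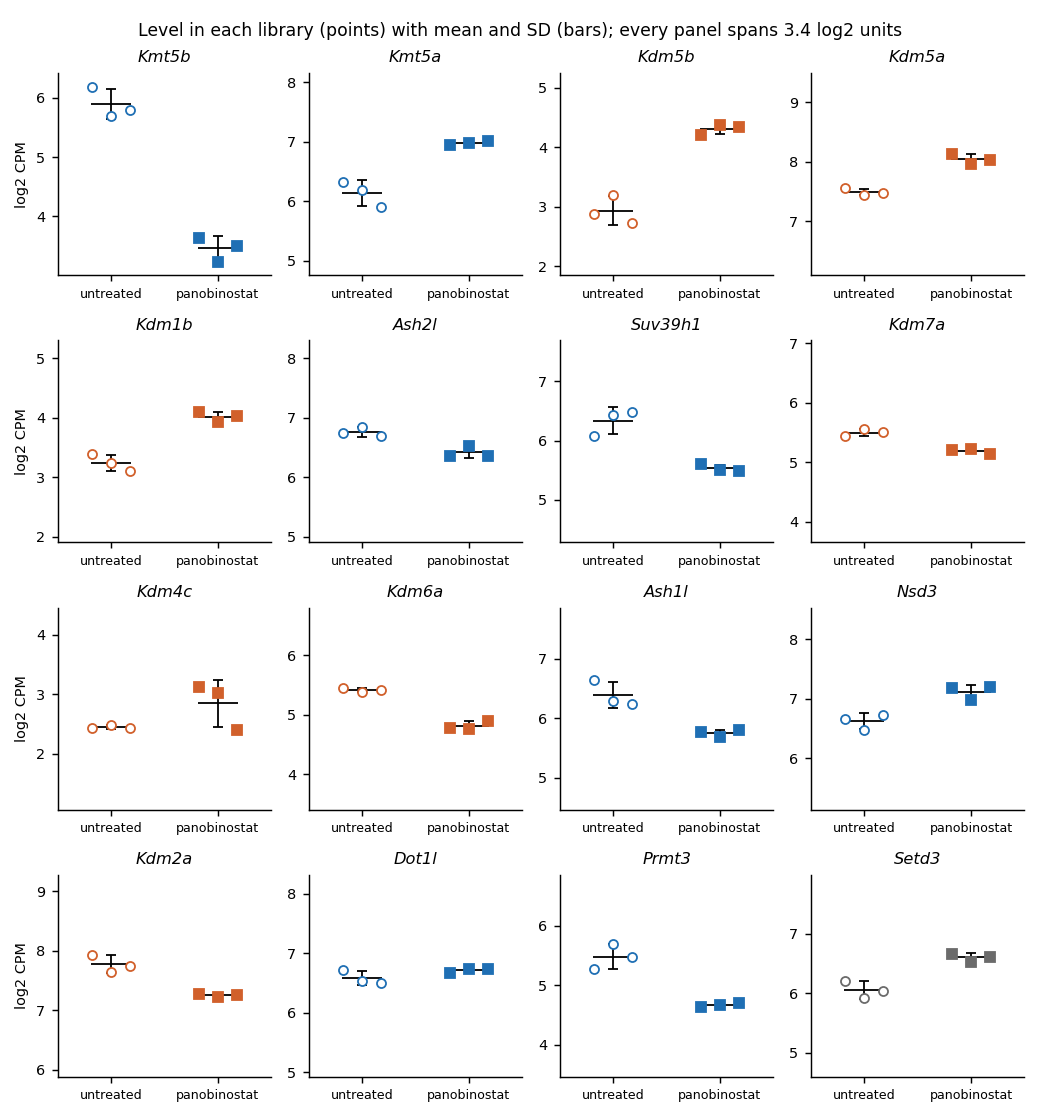
Level of 16 genes in each library (points, log2 CPM on the y axis) with mean and SD (bars, n = 3); open circles are untreated and filled squares panobinostat libraries (blue writers, orange erasers, grey no assigned residue), in the order 1 to 3 from left to right. All panels span the same range, so that the fall of Kmt5b from 5.70 to 6.18 down to 3.24 to 3.63 can be set beside the smaller steps of the others, and the groups overlap for Kdm4c and Dot1l.

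Among H3K9 writers 1 rose and 1 fell of 6 (median 0.05). Suv39h1 and Suv39h2 trimethylate H3K9 in heterochromatin, Ehmt1 and Ehmt2 (also called GLP and G9a) make the lower forms as a pair, and Setdb1 acts in the silencing of retroelements. Suv39h1 stood at 6.07, 6.44 and 6.48 log2 CPM in untreated libraries 1 to 3 and at 5.61, 5.50 and 5.49 in panobinostat libraries 1 to 3 (-0.80 ± 0.12 on the log2 scale, limma adjusted p = 0.00257). The 3 treated values lay together and well below the untreated ones, and the call was kept in all 6 fits with 1 library left out (-0.93 to -0.72). Its paralog Suv39h2 had treated values above all untreated ones, 3.62, 3.61 and 3.59 against 3.42, 3.37 and 3.57, but did not pass (0.15 ± 0.13, limma adjusted p = 0.378). The last exon of Suv39h2 shares 41 bases with Dclre1c on the opposite strand, and Dclre1c rose (1.33 ± 0.22). Setdb2 rose from a low level of 2.29, 2.13 and 2.15 to 2.92, 2.62 and 3.04 (0.67 ± 0.19 on the log2 scale, limma adjusted p = 0.0252), which was 29 to 38 against 42 to 63 estimated reads. This call was lost on leaving out panobinostat library 1 or 3 or untreated library 2 or 3 (0.58 to 0.65). Setdb1 stood at -0.04 ± 0.19 (95% interval -0.48 to 0.39).

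The partners Ehmt1 and Ehmt2 had estimates of opposite sign, 0.39 ± 0.16 (95% interval 0.02 to 0.76) and -0.36 ± 0.13 (-0.67 to -0.06), and neither passed. Ehmt1 passed without untreated library 1 (0.56) and Ehmt2 without panobinostat library 2 (-0.48). For Ehmt1, untreated library 1 at 6.31 lay among the treated libraries (6.22 to 6.50), while the other untreated libraries were at 5.87 and 5.70.

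Of the 3 H3K9 erasers 0 rose and 1 fell. Kdm3a and Kdm3b remove mono- and dimethyl H3K9, and Kdm7a acts on dimethyl H3K9 and H3K27. Kdm7a stood at 5.43, 5.56 and 5.50 log2 CPM in untreated libraries 1 to 3 and at 5.21, 5.23 and 5.14 in panobinostat libraries 1 to 3 (-0.30 ± 0.09 on the log2 scale, limma adjusted p = 0.0282). The groups did not overlap, but the call was lost on leaving out any library other than untreated library 1 (-0.32 to -0.27). The last exon of Kdm7a shares 113 bases with the antisense gene 4930599N23Rik. Kdm3a (-0.18 ± 0.12, 95% interval -0.46 to 0.10) and Kdm3b (-0.28 ± 0.21, -0.78 to 0.22) did not pass. The Kdm4 enzymes remove trimethyl marks from both H3K9 and H3K36, and 0 of 3 passed with limma, nor did any at an unadjusted p below 0.05. Kdm4c had the smallest adjusted p of them (0.201). It stood at 2.43, 2.49 and 2.44 untreated and 3.12, 3.02 and 2.40 treated (0.39 ± 0.22), so that panobinostat library 3 lay below all untreated libraries and the other treated libraries above them. Kdm4c had 36 to 55 and Kdm4b (-0.15 ± 0.22) 40 to 65 estimated reads, and the 95% intervals (-0.12 to 0.91 and -0.66 to 0.35) were wide. Kdm4a stood at 0.05 ± 0.17.

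Besides Kdm7a, 2 of the erasers act on H3K27, and 1 of them fell. Kdm6a, an X-linked gene whose product (UTX) belongs to the Kmt2c and Kmt2d complexes and is a tumour suppressor in human T-ALL, fell. Kdm6a stood at 5.46, 5.39 and 5.42 log2 CPM in untreated libraries 1 to 3 and at 4.77, 4.76 and 4.90 in panobinostat libraries 1 to 3 (-0.61 ± 0.09 on the log2 scale, limma adjusted p = 0.00247). All treated values were below all untreated ones, which lay between 5.39 and 5.46, and the call was kept in all 6 fits with 1 library left out (-0.66 to -0.58). Kdm6b (JMJD3) overlapped fully, at 5.34, 4.85 and 5.14 untreated and 5.02, 5.13 and 5.19 treated (0.00 ± 0.14, 95% interval -0.31 to 0.32).

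Among the 5 H3K36 writers 1 rose and 2 fell, and both H3K36 erasers fell. Setd2 makes the trimethyl form in gene bodies, and Nsd1, Nsd2, Nsd3 and Ash1l make the dimethyl form. Ash1l stood at 6.64, 6.29 and 6.23 log2 CPM in untreated libraries 1 to 3 and at 5.76, 5.68 and 5.80 in panobinostat libraries 1 to 3 (-0.64 ± 0.12 on the log2 scale, limma adjusted p = 0.00532). Treated libraries were close together and below all untreated ones, of which library 1 was the highest. Nsd1 fell as well (-0.44 ± 0.11 on the log2 scale, limma adjusted p = 0.0166), from 7.25, 6.87 and 6.94 to 6.64, 6.54 and 6.55, with the call lost on leaving out panobinostat library 2 or 3 (-0.43 to -0.42). Its relative Nsd3 rose from 6.66, 6.48 and 6.73 to 7.18, 6.99 and 7.19 (0.49 ± 0.10 on the log2 scale, limma adjusted p = 0.00674), a call which, like that of Ash1l, was kept in all 6 fits with 1 library left out. Nsd2, an enzyme with gain-of-function mutations in human lymphoblastic leukaemia, stood at 0.04 ± 0.08 (95% interval -0.15 to 0.22) and Setd2 at -0.06 ± 0.11 (-0.32 to 0.21).

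Kdm2a and Kdm2b bind unmethylated CpG islands and remove dimethyl H3K36. Kdm2a stood at 7.93, 7.64 and 7.75 log2 CPM in untreated libraries 1 to 3 and at 7.28, 7.23 and 7.26 in panobinostat libraries 1 to 3 (-0.52 ± 0.09 on the log2 scale, limma adjusted p = 0.00365). The treated values nearly coincided and lay below all untreated ones. Kdm2b fell from 6.58, 6.61 and 6.67 to 6.26, 6.36 and 6.41 (-0.28 ± 0.08 on the log2 scale, limma adjusted p = 0.0258), without overlap. Its call was lost on leaving out any library other than untreated library 1 (-0.31 to -0.24). The last exon of Kdm2b shares 627 bases with Rnf34 on the opposite strand (Rnf34 0.29 ± 0.17, not past the threshold). The only H3K79 writer, Dot1l, a therapeutic target in leukaemia with KMT2A rearrangement, did not pass. Dot1l stood at 6.71, 6.53 and 6.50 log2 CPM in untreated libraries 1 to 3 and at 6.67, 6.73 and 6.74 in panobinostat libraries 1 to 3 (0.14 ± 0.08, 95% interval -0.06 to 0.33). Untreated library 1 lay within the treated values.

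Arginine methyltransferases fell or did not pass: 0 rose and 4 fell of 6, while Prmt1 was not among the 48 genes. This was 66.7% past the threshold, against 38.3% of all genes tested, of which 19% were lower. The median log2 fold change of the 6 was -0.54, beside -0.0052 for all genes tested. Prmt3, a cytosolic enzyme of ribosomal protein S2, fell the most. Prmt3 stood at 5.27, 5.69 and 5.47 log2 CPM in untreated libraries 1 to 3 and at 4.63, 4.67 and 4.70 in panobinostat libraries 1 to 3 (-0.81 ± 0.12 on the log2 scale, limma adjusted p = 0.00248). Prmt7, which makes only monomethylarginine, fell from 6.07, 6.28 and 6.41 to 5.74, 5.72 and 5.74 (-0.52 ± 0.10 on the log2 scale, limma adjusted p = 0.00658). Treated values of both genes lay within a narrow band under every untreated value, and both calls were kept in all 6 fits with 1 library left out. Prmt6, a nuclear enzyme that methylates arginine 2 of histone H3, fell (-0.56 ± 0.14 on the log2 scale, limma adjusted p = 0.0166), with the call lost on leaving out panobinostat library 2 or untreated library 3 (-0.55 to -0.51). Prmt2, at 31 to 57 estimated reads, fell (-0.65 ± 0.19 on the log2 scale, limma adjusted p = 0.0327), with the call lost on leaving out panobinostat library 2 or 3 or untreated library 2 or 3 (-0.62 to -0.56). Prmt5, the main source of symmetric dimethylarginine, stood at 0.03 ± 0.09 (95% interval -0.19 to 0.25) and Prmt9 at 0.06 ± 0.13 (-0.24 to 0.37). The last exons of Prmt3, Prmt6 and Prmt7 overlap genes on the opposite strand by 136 bases (Gm26856), 984 bases (C130013H08Rik) and up to 247 bases (Smpd3). Without strand, reads in these overlaps were not separable from those genes. Smpd3 had a mean of 0.24 log2 CPM over the 6 libraries, beside 5.99 for Prmt7, and did not pass (1.14 ± 0.46). The part of these overlaps in the changes was not tested.

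Of the 5 genes with no settled histone target 1 rose and 2 fell. Setd3, whose known substrate is a histidine of actin, rose. Setd3 stood at 6.21, 5.92 and 6.03 log2 CPM in untreated libraries 1 to 3 and at 6.66, 6.53 and 6.61 in panobinostat libraries 1 to 3 (0.55 ± 0.10 on the log2 scale, limma adjusted p = 0.00432), without overlap and with the call kept in all 6 fits with 1 library left out. Kmt2e, a relative of the Kmt2 enzymes with no established enzymatic activity, fell from 8.02, 7.92 and 7.85 to 7.60, 7.58 and 7.61 (-0.33 ± 0.07 on the log2 scale, limma adjusted p = 0.00915). The last exon of Kmt2e shares 972 bases with Srpk2 on the opposite strand, and Srpk2 rose (0.38 ± 0.08). Setd4 fell at 32 to 107 estimated reads (-0.75 ± 0.24 on the log2 scale, limma adjusted p = 0.0443), with the call lost on leaving out any library other than untreated library 2 (-0.87 to -0.59). Setd5 (0.03 ± 0.10) and Setd6, which methylates the NF-kB subunit RelA (0.10 ± 0.11), did not pass.

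**Figure D3:**
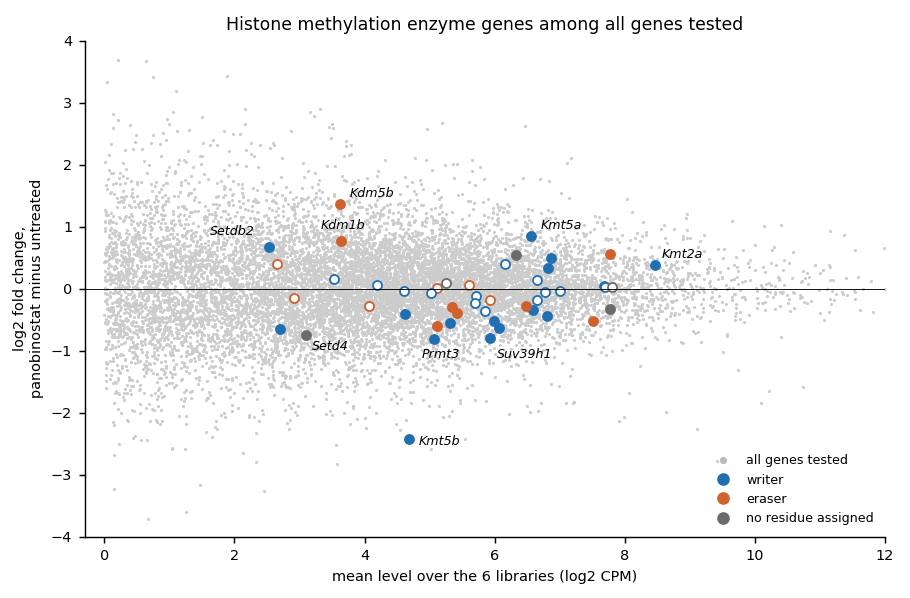
Mean level over the 6 libraries (log2 CPM, x axis) against log2 fold change (y axis) for all genes tested (grey) and the 48 genes (blue writers, orange erasers, grey filled no assigned residue; filled where the adjusted p is below 0.05). Most of the 48 lie near 0 among well-expressed genes, Kmt5b lies at the lower edge of the cloud at -2.43, and 18 genes lie outside the axes.

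Partners of these enzymes were counted in 7 lists. Of the 67 partner genes measured, 18 rose and 17 fell (52.2% passed, against 38.3% of all genes and 48.1% of genes at the levels of the 48, whose median of 5.78 log2 CPM was close to the partners' 5.79). Among 14 partners in the COMPASS and MLL complexes 3 rose and 3 fell. Wdr5, a core subunit beside Ash2l, rose from 5.79, 5.40 and 5.42 to 6.36, 6.44 and 6.57 (0.92 ± 0.12 on the log2 scale, limma adjusted p = 0.00166), whereas Hcfc1, a subunit that tethers the complexes to promoters, fell from 6.42, 6.37 and 6.46 to 5.56, 5.39 and 5.33 (-0.99 ± 0.09 on the log2 scale, limma adjusted p = 0.000435). Hcfc2, in the same list, rose (0.77 ± 0.11, limma adjusted p = 0.00173). Of the core subunits besides Wdr5 and Ash2l, Rbbp5 stood at 0.20 ± 0.10 and Dpy30 at 0.42 ± 0.14, and neither passed. Among 9 genes of the DOT1L complex and the ligase for H2B ubiquitin, which stimulates H3K79 and H3K4 methylation, 4 rose and 2 fell. The rises were Ube2b (0.68 ± 0.10), Rnf20 (0.29 ± 0.07), Ube2a (0.29 ± 0.09) and Mllt6 (0.25 ± 0.08). Mllt10 (AF10), a Dot1l partner and a fusion gene in T-ALL, changed by -0.79 ± 0.08 and the ligase adaptor Wac by -0.76 ± 0.09 (limma adjusted p = 0.000566 and 0.000945), while Dot1l itself did not pass.

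Of 9 partners and readers of H3K9 methylation 3 rose and 4 fell. Atf7ip, the cofactor that stabilises Setdb1, fell by more than 2-fold. Atf7ip stood at 6.50, 6.53 and 6.67 log2 CPM in untreated libraries 1 to 3 and at 5.46, 5.35 and 5.29 in panobinostat libraries 1 to 3 (-1.19 ± 0.09 on the log2 scale, limma adjusted p = 0.000253). Zfp644, a zinc finger partner of the Ehmt pair, fell too (-0.51 ± 0.10, limma adjusted p = 0.00581). The 3 rises in this list were Mphosph8 (0.47 ± 0.10), Cbx1 (0.45 ± 0.14) and Wiz (0.31 ± 0.09). Neither Setdb1 nor the Ehmt genes passed. Among 6 genes linked to arginine methylation 1 rose and 1 fell. Carm1, a further arginine methyltransferase (PRMT4), changed by -0.78 ± 0.18 (limma adjusted p = 0.0117), and Wdr77, the obligate partner of Prmt5, by 0.42 ± 0.10 (0.0153). The Wdr77 call was lost on leaving out panobinostat library 1 (0.41).

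JmjC proteins without a Kdm name split evenly, 2 rose and 2 fell of 8. Phf2, an H3K9 demethylase, changed by -0.59 ± 0.09 and Jarid2, a catalytically inactive polycomb cofactor, by 0.43 ± 0.07 (limma adjusted p = 0.00256 and 0.00371). Among 9 SET genes of other families 1 rose and 4 fell. The largest falls were at low levels. Prdm15 went from 3.07, 3.23 and 3.47 to 1.18, 0.67 and 1.70 (-2.07 ± 0.29 on the log2 scale, limma adjusted p = 0.00179). Prdm10 stood at 2.36, 1.41 and 1.89 untreated and 0.48, -0.74 and -0.52 treated. It was above the filter on low values only through its untreated level, and its difference was -2.15 on the log2 scale but -1.34 on the scale of log2 of value plus 1. Of 12 genes that supply S-adenosylmethionine, the methyl donor, or 2-oxoglutarate, the cofactor of JmjC enzymes, 4 rose and 1 fell. Idh1 (0.98 ± 0.17), Idh3a (0.59 ± 0.11) and Mtap (0.38 ± 0.10) were among the rises. Mat2a, which makes S-adenosylmethionine, fell from 8.10, 7.71 and 7.87 to 7.15, 7.16 and 7.28 (-0.69 ± 0.11 on the log2 scale, limma adjusted p = 0.00254).

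**Figure D4:**
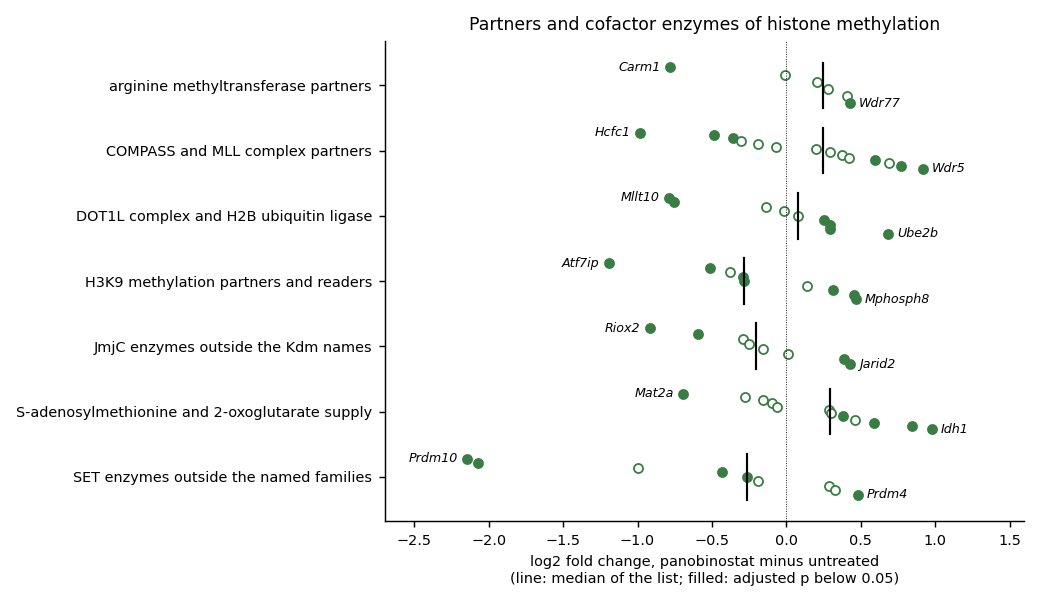
Log2 fold change (x axis) of each measured gene in the 7 partner lists, with the lowest and highest gene of each list named, the list median as a line, and filled points for an adjusted p below 0.05. Medians lie between -0.28 and 0.30, and both directions occur in every list.

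The 48 genes were long, with a median annotated length of 43.5 kb against 18.5 kb for the 12329 tested genes matched to 1 annotated gene. Across the 48 genes Spearman's rho between gene length and log2 fold change was 0.12, and across the tested genes 0.01, given as a description since genes share libraries. The promoter windows of the 35 genes had a median of 17 CpG dinucleotides and 60.4% G and C, beside 16 and 60% in the 8563 tested genes with a window. Since the values were, as inferred from them, quantile normalized between libraries, a change of total RNA or of all genes in 1 direction would not be seen in these comparisons.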

How the data were processed

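Gene expression was measured in 3 panobinostat and 3 untreated libraries, grouped by labelled treatment. Reads were processed with HISAT2 2.1.0, cutadapt 1.9, limma and the featureCounts program of Subread 1.5.0 on mm10, per the submitters' processing notes, while annotation and strandedness are not given in the sources used here. Values deposited by the authors are log2 CPM. This unit, and quantile normalization, were inferred from the values, whose powers of 2 summed to 994114 to 994182 in each library.

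Genes with a mean log2 value of at least 0 were tested with limma 3.58.1 in R 4.3.3 (lmFit, eBayes with a mean-variance trend, Benjamini-Hochberg adjustment, threshold 0.05, no pseudocount), and the script was tested on simulated data. A ± after a log2 fold change is its SE. Estimated reads are CPM times the reads per CPM found from 200 steps between tied low values. They are approximate and are not independent molecules. Python 3.11.15, pandas 2.3.3 and matplotlib 3.10.9 were used for annotation and figures. Positions and exon overlaps came from GENCODE, which matched all 48 symbols. Values in every library are given for genes past the threshold with at least 2-fold change and for the gene with the smallest adjusted p in each residue and role, others by fold change, with up to 2 genes per partner list, of which 1 is not reported here. Values in every library for any other gene, and fold changes of further partner genes, were added after they had been seen. The members and lists were chosen with earlier results of these data known. Alternatives were other filters, scalings, spread models, sample weights, a pseudocount of 1, a threshold of 0.01, a replicate block and each library left out.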

Additional observations from a re-analysis of the deposited data

How the results depend on the processing

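Under no filter, a mean log2 of at least 2, both other scalings, a robust trend, sample weights and log2 of value plus 1, all counts stayed within 1.5 times those reported. At an adjusted p below 0.01, all genes higher numbered 1240 and lower 1273, members lower 8, writers higher 2 and lower 5, and erasers lower 2. Without a mean-variance trend, writers higher numbered 3 and erasers lower 3. With 1 library left out, the ranges were 1587 to 2664 for all genes higher, 1636 to 2562 for all genes lower, 6 to 10 for members higher, 10 to 16 for members lower, 2 to 6 and 7 to 10 for writers higher and lower, and 2 to 5 for erasers lower; 3 erasers were higher in each. Of the 26 called members 14 kept their call in all 6 such fits. No member past the threshold changed direction in any alternative run. Those that did had not passed: with 1 library left out, Kmt5c (-0.27 to 0.0013), Kdm6b (-0.12 to 0.12), Kmt2d (-0.18 to 0.10), Setdb1 (-0.22 to 0.11), Kdm4a (-0.082 to 0.21), Setd5 (-0.029 to 0.13), Prmt5 (-0.057 to 0.097), Prmt9 (-0.013 to 0.14), Setd2 (-0.14 to 0.072), Nsd2 (-0.0068 to 0.10), and with sample weights Prmt5 (-0.0079) and Setd2 (0.0074). Ehmt1 and Setd1a passed with sample weights (0.56 and -0.24), and Ehmt2 passed with sample weights (-0.44) and with a robust trend (-0.36). With the replicate number as a block, 8 members rose and 13 fell, 5 calls were lost and 0 gained. Deviations of same-numbered libraries from their group means had correlations of -0.044, 0.10 and -0.011. Across the groups, 2 of 6 libraries correlated best with their own number. With 3 libraries per group, these values cannot show whether the numbers are a pairing. The cause of the shifts between alternatives was not tested. Setdb2, Prmt2, Kdm4b and Kdm4c had at most 65 estimated reads in any library, and the part of depth in their errors was not tested.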
